A study of Drosophila melanogaster with 12 samples.

Results

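The genes of membrane trafficking and of the vacuolar ATPase (V-ATPase) were followed in the heads of adult Drosophila melanogaster fed pentylenetetrazole (PTZ), a convulsant that blocks GABA-gated chloride channels. Members were chosen by gene name, with earlier results of these data known. They were all probes whose gene symbol, in the annotation of the array or in its current form, begins with Rab, Arf, Arl, Syx, Vps, Sec or Vha followed by a digit. Rab3 and probes with several gene names were left out. The rule found 59 features of 54 genes among the 13824 features of the array, of which 7558 carried 1 gene symbol. They were 13 features of 11 Rab genes, 2 of the Arf and Arl group, 14 of 13 Sec genes, 21 of 21 Vps genes and 9 of 7 V-ATPase genes. No syntaxin (Syx) symbol matched a named feature, so that the SNARE proteins among the members were Sec20 and Sec22 only, and the syntaxins themselves could not be compared. Among current gene symbols 118 fit the same pattern, 22 of them V-ATPase genes, and the array names therefore cover only some of each family.

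Rab, Arf and Arl proteins are small GTPases that mark membrane compartments and recruit the machinery that moves and tethers vesicles. Sec proteins include the coat of vesicles that leave the endoplasmic reticulum, the exocyst that tethers vesicles at the cell surface, and the channel through which new proteins enter the endoplasmic reticulum, while Vps proteins sort cargo at endosomes and tether endosomes and lysosomes. The V-ATPase is a rotary proton pump of a membrane ring (V0) and a cytosolic motor (V1), which acidifies endosomes and lysosomes and drives the filling of synaptic vesicles with transmitter.

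RNA of pooled heads was hybridised to 2-colour cDNA arrays, PTZ against normal food (NF) of the same time point, and the values are log2 ratios, in which 1 is a 2-fold difference. All flies were wild-type Oregon-R males, unmated and 3 to 4 days old at the start, kept at 30 per vial. The groups are PTZ 12 hrs, PTZ 2nd day and PTZ 7th day, at 8 mg/ml PTZ in the food, each against NF flies kept in parallel, with 4 arrays of biological replicates each, and these 4 arrays limit the precision. PTZ RNA carried the red dye Cy5 on replicates 1 and 2 (forward arrays). On replicates 3 and 4 (swapped arrays) it carried the green dye Cy3.

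The sources used here do not state whether the deposited ratios of swapped arrays had already been turned to PTZ over NF. Ratios of swapped arrays are therefore given turned (multiplied by -1), and a value "as deposited" has the opposite sign on replicates 3 and 4. Forward arrays read PTZ over NF either way, but with 1 dye orientation a dye effect cannot be told apart from PTZ. The labels of replicates 3 and 4 at 12 hrs and of replicate 2 of the 2nd day contradict themselves on treatment or dye, and their orientation was taken from the title, the treatment protocol and the methods. Replicate 4 of the 7th day stood apart, with a median of all features of 0.64 once turned, against 0.04 to 0.13 on the other 3 arrays of the 7th day. In RNA of whole heads, fewer cells of a type and less RNA per cell cannot be told apart.

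A member feature had a value on 1 to 12 arrays. Of the 59 features, 2 had a value on all 12 arrays (Rab2 and Rab30), 19 on 10 or more, and 17 on 3 or fewer. At least 3 of 4 arrays, the minimum for a test, were reached by 28 features at 12 hrs, by 35 at the 2nd day and by 25 at the 7th day. The 2 adjacent spots averaged into a feature differed by a median of 0.13 on the log2 scale over 393 member values, and in 13 of them by more than 0.6.

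**Figure D1:**
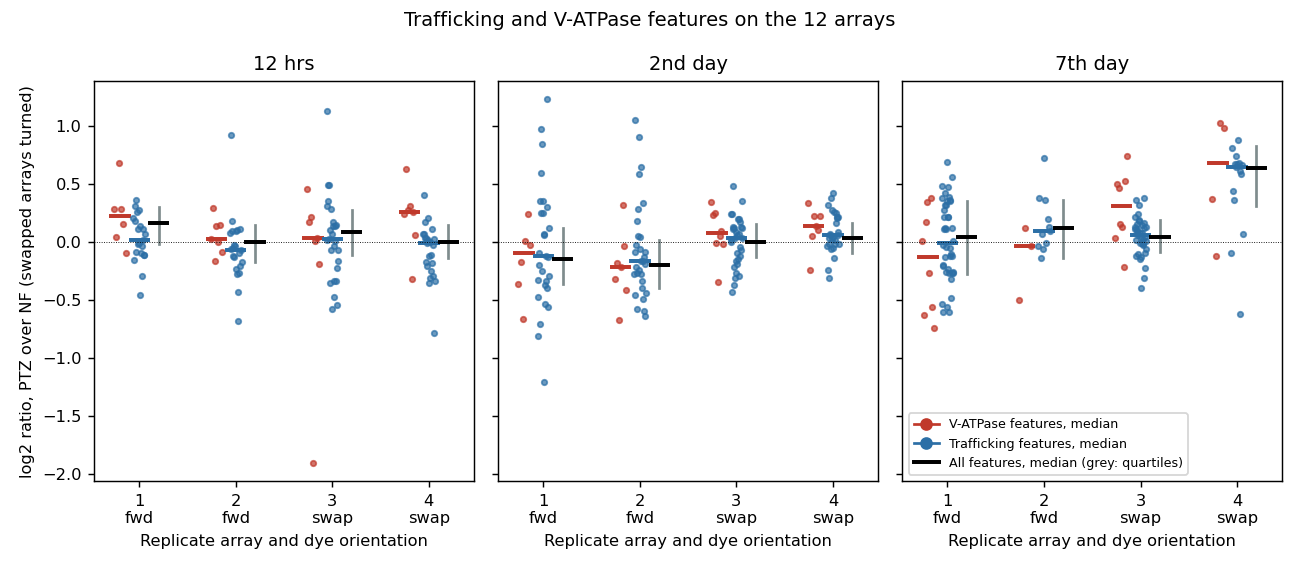
Log2 ratio of PTZ over NF (vertical axis) for each member feature on the 12 arrays, with V-ATPase features in red, trafficking features in blue, their medians as bars, and the median and quartiles of all features in black and grey. On the 2nd day the trafficking medians lie at -0.12 and -0.16 on forward arrays and at 0.03 and 0.06 on swapped arrays after turning.

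With swapped arrays turned, limma called no member at any time point after Benjamini-Hochberg adjustment over all features tested. At 12 hrs 0 of 28 members were called, where 0% of 4642 features were, and the smallest adjusted p of a member was 0.237. At an unadjusted p under 0.05 stood 1 member lower and 4 higher, against 173 lower and 551 higher features in all. On the 2nd day 0 of 35 members were called (0% of 5279 features, smallest adjusted p of a member 0.519), with 0 lower and 1 higher member at the unadjusted threshold, against 396 lower and 96 higher features in all. On the 7th day 0 of 25 were called (0% of 4316 features, smallest adjusted p 0.964), and none had an unadjusted p under 0.05, against 19 lower and 79 higher features in all. Changes of 0.5 and of 1 on the log2 scale were planted in simulated data. At 12 hrs the same fit found 39% of the changes of 0.5 and 90.5% of those of 1. At the 2nd day it found 0% and 86.5%, and at the 7th day 0% of both. Counts of 0 therefore do not show that the members were unchanged. The median of the members tested was -0.04 at 12 hrs, -0.03 in the 2nd day arrays and 0.14 in the 7th day arrays, beside 0.07, -0.08 and 0.16 over all features. As deposited, 0 members were called at each time point as well, where the share of all features called was 0% for 12 hrs, 0.0189% for the 2nd day and 0.672% for the 7th day. SAM at the false discovery rates of the study, on turned ratios, took 6 of 28 members as higher at 12 hrs, beside 26.4% of all features. It took 1 of 35 as lower at the 2nd day, beside 10.2% of all features, and none at the 7th day. The study, with its own filters and SAM run, reported only downregulated genes at these rates, at every time point. The 6 were Rab9, Sec15, Vps24, Vha55, Vha68-3 and 1 of the 2 features of Vha44, and the 1 was a feature of Rab35.

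The V-ATPase had values for 9 features of 7 genes: Vha16-1 (the proteolipid of the membrane ring), Vha100-4 (the large membrane subunit a), and the V1 subunits Vha68-3 (catalytic subunit A), Vha55 (subunit B), Vha44 (subunit C), Vha36-2 (subunit D) and Vha26 (subunit E). At 12 hrs their median was above 0 on all 4 turned arrays (0.22, 0.03, 0.04 and 0.26), or on forward arrays alone as deposited. The median of all features was above 0 on the same arrays, at 0.16, 0.001, 0.09 and 0.0015 once turned. On replicate 3 it lay above that of the V-ATPase. None of the 7 V-ATPase features tested passed the threshold. On the 2nd day Vha16-1 was low on both forward arrays, and Vha55 was at the 7th day, as was Vha26 on the 1 forward array that measured it.

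Vha16-1, through whose ring protons cross the membrane, had -0.67 and -0.67 on forward arrays of the 2nd day, and 0.25 and 0.05 on swapped arrays. Both forward values lay below the lower quartile of all features on their arrays, -0.36 and -0.40. Its mean was -0.67 on forward arrays (limma on forward arrays, adjusted p = 9.66e-06) and -0.26 ± 0.48 over all 4 turned arrays (SD, n = 4, limma adjusted p = 0.591). At 12 hrs it had -0.17 on the 1 forward array with a value and 0.22 and 0.28 on swapped arrays, and on the 7th day 0.17 and 0.12 on forward arrays and 0.46 and -0.12 on swapped arrays. With swapped arrays turned, its lowest values were thus those of the forward 2nd-day arrays. As deposited, it was below 0 on every array with a value at 12 hrs and on the 2nd day. The means as deposited were -0.22 ± 0.06 at 12 hrs (SD, n = 3) and -0.41 ± 0.31 on the 2nd day (SD, n = 4, limma adjusted p = 0.19).

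Vha55, the B subunit of the motor, stood above 0 on all 4 turned arrays at 12 hrs, with 0.04 and 0.29 on forward arrays and 0.17 and 0.63 on swapped arrays. The mean was 0.29 ± 0.25 (SD, n = 4, limma adjusted p = 0.302), and -0.12 ± 0.39 as deposited. Its values of the 2nd day were -0.17 and -0.18 on forward arrays and 0.23 and -0.24 on swapped arrays. Values of the 7th day were -0.63 and -0.50 on forward arrays and 0.50 on the 1 swapped array with a value. Turned, the swapped array of the 7th day lay on the other side of 0. As deposited all 3 lay within 0.13 of each other, with a mean of -0.54 ± 0.07 (SD, n = 3, limma adjusted p = 0.463).

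Vha68-3, one of the genes for the ATP-splitting A subunit, also stood above 0 on the 4 turned arrays of 12 hrs, with 0.28 and 0.03 on forward arrays and 0.46 and 0.24 on swapped arrays. Its 4 arrays of the 2nd day had nearly the same size, -0.36 and -0.32 on forward arrays and 0.34 and 0.33 on swapped arrays. Turned, these values cancelled to a mean of 0.00 ± 0.39 (SD, n = 4, limma adjusted p = 0.998). As deposited they were one-sided, at -0.34 ± 0.02 (SD, n = 4, limma adjusted p = 0.170). Its values of the 7th day were 0.01 on the forward array and 0.04 and 0.38 on swapped arrays.

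Vha26, the E subunit of the stalk, stayed near 0 at 12 hrs, at -0.09 and -0.08 on forward arrays and -0.19 and 0.06 on swapped arrays. Values of the 2nd day were -0.03 and -0.41 on forward arrays and 0.10 and 0.23 on swapped arrays. The 7th day gave its largest ratios, -0.74 on the 1 forward array with a value and 0.74 and 0.98 on swapped arrays. The mean was therefore 0.33 ± 0.94 turned (SD, n = 3, limma adjusted p = 0.964) and -0.82 ± 0.14 as deposited (limma adjusted p = 0.0834), and this member's direction on the 7th day rests on the reading of swapped arrays. On replicate 4, where its value was 0.98, all features had a median of 0.64.

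Vha44, the C subunit that joins the motor to the stalk, was measured by 2 features. On the 10 arrays with both, they differed by a median of 0.15 and had opposite signs on 2. The largest gap was 1.95, on replicate 3 at 12 hrs, where the first feature had -1.91 and the second 0.04, and the 2 spots of the first differed by 1.20. Its other 3 arrays at 12 hrs read 0.29 and 0.13 (forward) and 0.32 (swapped), so that its mean was -0.29 ± 1.08 (SD, n = 4) with replicate 3 and 0.25 without it. The second feature had 0.16, 0.15, 0.04 and 0.26 at 12 hrs, above 0 on all 4 turned arrays. On the 2nd day the first feature had 0.01 and -0.21 on forward arrays and -0.01 and 0.22 on swapped arrays, and at the 7th day -0.27 on the forward array and 0.13 and 1.03 on swapped arrays. The second had -0.56 on the forward array and 0.53 on the 1 swapped array with a value, a mean of -0.02 turned and -0.54 as deposited.

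The other V-ATPase members were measured on fewer arrays. Vha100-4 had a value on 8 arrays, from -0.34 (replicate 3, 2nd day) to 0.38 (replicate 1, 7th day). The 2 features of Vha36-2 had a value on 4 arrays and on 1, and shared none. Over the V-ATPase features with a value on all 4 arrays, 3 of 5 were above 0 on every turned array at 12 hrs and none was below 0 on every one. Over all features with a value on all 4 arrays at 12 hrs, 22.9% were above 0 on every array. As deposited, 0 of these 5 V-ATPase features and 5.22% of all features were.

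**Figure D2:**
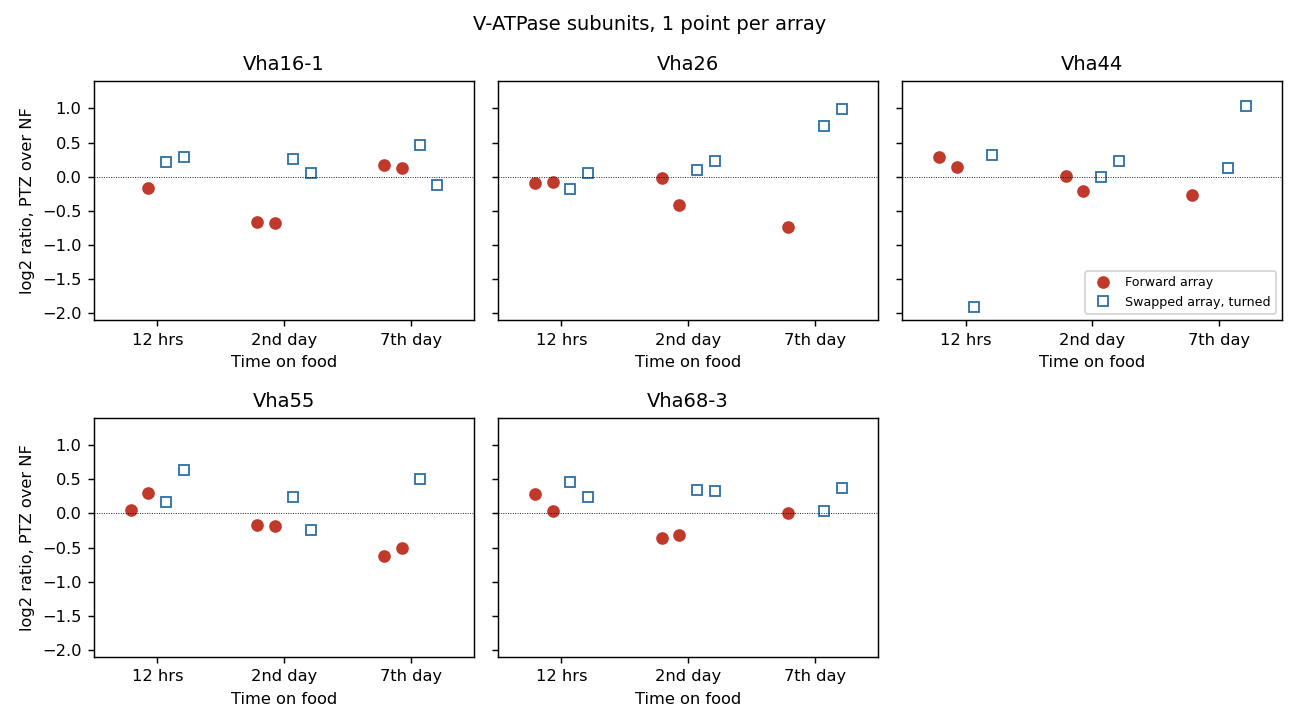
Log2 ratio of PTZ over NF (vertical axis) of 5 V-ATPase genes at 12 hrs, the 2nd and the 7th day, 1 point per array, with forward arrays as red circles and swapped arrays, turned, as blue squares. Vha68-3 at the 2nd day and Vha26 at the 7th day had forward and swapped values of about equal size on opposite sides of 0, and Vha44 had -1.91 on replicate 3 at 12 hrs.

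The Rab features, among them Rab3-GAP, which regulates a Rab GTPase and is not one, had their lowest median on forward arrays of the 2nd day. There 7 of 10 Rab features were below 0 on both arrays, beside 63.7% of all features, and 2 were above 0 on both, beside 17.3%, and their mean ratios had a median of -0.41, against -0.20 over all features. On swapped arrays the median of the Rab means was -0.06 after turning. Of 11 Rab features with both orientations, 1 had the same sign on forward and swapped arrays once turned, and 10 as deposited. Over all features 41.6% had the same sign once turned, and 58.4% as deposited.

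Rab2, which acts between the endoplasmic reticulum, the Golgi and late endosomes, was measured on all 12 arrays. Its values of the 2nd day were -0.39 and -0.59 on forward arrays and -0.06 and 0.21 on swapped arrays. At 12 hrs it was below 0 on all 4 turned arrays, at -0.11, -0.21, -0.22 and -0.03 (mean -0.14 ± 0.09, SD, n = 4, limma adjusted p = 0.426), with a mean of -0.02 ± 0.19 as deposited. On the 7th day its arrays split, at -0.48 and 0.13 on forward arrays and 0.17 and 0.61 on swapped arrays.

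Rab35, which acts in endocytic recycling in mammals, had the largest fall of the Rab genes on forward arrays of the 2nd day, with -0.71 and -0.58, beside 0.13 and -0.02 on swapped arrays. The forward mean was -0.64 (limma on forward arrays, adjusted p = 2.27e-05). At 12 hrs it was near 0, at -0.09 and -0.12 (forward) and 0.03 and 0.03 (swapped). On the 7th day it stood above 0, at 0.32 and 0.72 on forward arrays and 0.11 on the swapped array. The second feature of Rab35 differed from the first by a median of 0.11 over 8 arrays, but on replicate 1 of the 7th day it had -0.60, against 0.32 in the first, a gap of 0.93. The 2 features of Rab35 thus differed in direction on that array.

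Rab19 went the other way on the 2nd day, with 0.85 and 0.59 on forward arrays and -0.26 and 0.05 on swapped arrays. Values of the 7th day were 0.69 and 0.37 on forward arrays and 0.19 on the swapped array, above 0 on each array with a value, with a mean of 0.42 ± 0.25 (SD, n = 3, limma adjusted p = 0.964). At 12 hrs only swapped arrays gave a value, -0.58 and 0.01. Rab9, which serves the return from late endosomes to the Golgi, had 0.93 on the forward array and 1.13 and 0.41 on swapped arrays at 12 hrs, with a mean of 0.82 ± 0.37 turned (SD, n = 3, limma adjusted p = 0.237) and -0.20 ± 1.05 as deposited. The 1.13 came from 1 spot. Its values of the 2nd day were 1.05 on the 1 forward array with a value and -0.43 and 0.32 on swapped arrays.

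Rab27, a GTPase of regulated secretion, and Rab30, a GTPase of the Golgi, passed no threshold. Rab27 had -0.13 and -0.13 on forward arrays and 0.13 and 0.22 on swapped arrays of the 2nd day, and -0.11, 0.11, -0.54 and -0.29 over the 4 turned arrays of 12 hrs. Values of the 7th day were -0.32 on the forward array and -0.31 and 0.59 on swapped arrays. Rab30 had -0.09, 0.10, -0.47 and -0.31 at 12 hrs, then 0.06, -0.16, -0.29 and 0.02 at the 2nd day, and -0.12, 0.20, 0.02 and 0.69 at the 7th day. The Rab features had medians of -0.11, -0.04, -0.22 and -0.12 on the 4 turned arrays of 12 hrs, below that of all features on each array (0.16, 0.00, 0.09 and 0.00). As deposited, the last 2 of these Rab medians are above 0.

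Of the Arf and Arl group, Arl6IP1, a membrane protein that shapes the endoplasmic reticulum and is not itself a GTPase, had -0.33 and -0.49 on forward arrays and 0.17 and -0.01 on swapped arrays of the 2nd day. At 12 hrs it had -0.04, -0.43, 0.14 and -0.11, and on the 7th day 0.38 on 1 swapped array. Arl5, a GTPase of the Golgi, had values on 4 arrays only and was not tested.

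Among members with both forward arrays of the 2nd day, the highest forward mean was that of a Sec gene. Sec24AB, which binds cargo in the COPII coat of vesicles that leave the endoplasmic reticulum, had 0.97 and 0.91 on forward arrays and -0.31 and 0.28 on swapped arrays. The forward mean was 0.94 (limma on forward arrays, adjusted p = 3.27e-10), and the mean over 4 turned arrays 0.46 ± 0.60 (SD, n = 4, limma adjusted p = 0.519). At 12 hrs and on the 7th day it had 1 value each, -0.06 and 0.11. The coat gene Sec24CD had no value on the 2nd day, and Sec31 had 1 value in all.

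Of the genes of protein entry into the endoplasmic reticulum, Sec63, a partner of the channel, had 0.60 and 0.28 on forward arrays and -0.37 and 0.07 on swapped arrays of the 2nd day. The channel subunit Sec61gamma had -0.25 and -0.24 on forward arrays and 0.03 and 0.03 on swapped arrays. Sec61beta, another channel subunit, given here for comparison, had 0.30 and 0.34 on forward arrays and -0.12 and 0.21 on swapped arrays. At 12 hrs Sec63 had 0.36, -0.05, 0.11 and 0.01, and Sec61gamma -0.02, -0.13, 0.29 and -0.01. Sec63 and Sec61gamma thus lay on opposite sides of 0 on forward arrays of the 2nd day, while Sec61beta lay on the side of Sec63. Sec22, a SNARE between the endoplasmic reticulum and the Golgi, had -0.29 and -0.44 on forward arrays and 0.12 and -0.02 on swapped arrays of the 2nd day. Sec15, the exocyst subunit that binds a Rab GTPase on the vesicle, stayed within 0.11 of 0 on all 4 arrays of the 2nd day, at -0.10, -0.03, 0.11 and 0.04. At 12 hrs it was above 0 on its 3 arrays, at 0.32, 0.18 and 0.35 (mean 0.28 ± 0.09, SD, n = 3, limma adjusted p = 0.302). As deposited, its value on the swapped array reads -0.35.

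The Vps genes with a value on all 4 arrays of the 2nd day had means from -0.20 (Vps39) to 0.29 (Vps52), while Vps8 and Vps4, with 1.23 and -1.21 on the 1 forward array that measured each, had too few values for the test. Vps52, of a complex that tethers vesicles from endosomes at the Golgi, had 0.36 and 0.65 on forward arrays and -0.09 and 0.26 on swapped arrays of the 2nd day, and no value at 12 hrs. Of the ESCRT genes, which bud vesicles into endosomes, Vps60 had -0.33 and -0.09 on forward arrays and 0.01 and -0.03 on swapped arrays of the 2nd day, and Vps37B 0.36, 0.18, 0.12 and 0.06, above 0 on all 4 turned arrays. Vps24 had 0.18, 0.09, 0.49 and 0.03 at 12 hrs, also above 0 on all 4 once turned, with a mean of 0.20 ± 0.20 turned and -0.06 ± 0.30 as deposited (SD, n = 4). Vps16A, a subunit of the complexes that tether endosomes and lysosomes, lay near 0 on the 2nd day, with 0.12, -0.19, 0.03 and 0.09 (mean 0.01 ± 0.14, SD, n = 4). On the 7th day the 6 Vps features tested had means from 0.06 to 0.20 with swapped arrays turned, beside a median of 0.16 over all features, and from -0.52 to 0.02 as deposited.

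**Figure D3:**
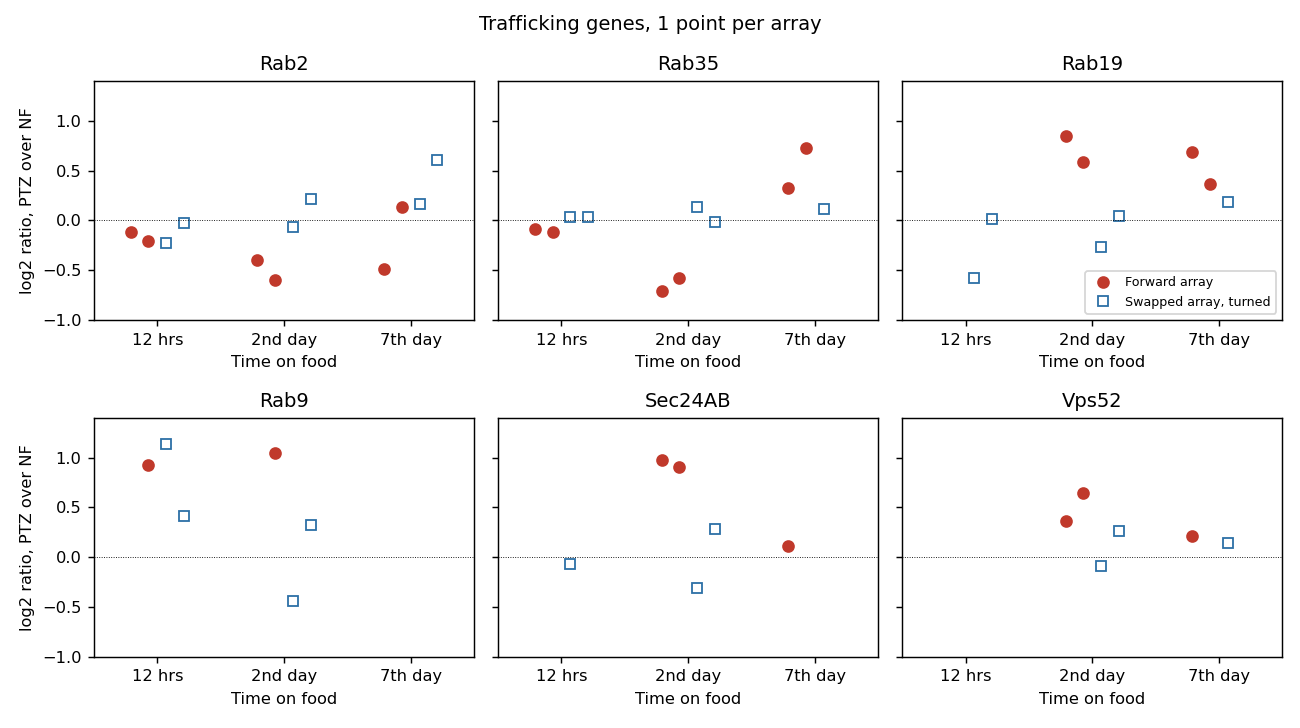
Log2 ratio of PTZ over NF (vertical axis) of 6 trafficking genes at the 3 time points, 1 point per array, with forward arrays as red circles and swapped arrays, turned, as blue squares. On the 2nd day the forward values of Rab2 and Rab35 lie from -0.71 to -0.39 and those of Rab19, Sec24AB and Vps52 from 0.36 to 0.97, while their swapped values lie between -0.31 and 0.28.

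On forward arrays alone, limma called 16 of 32 members on the 2nd day. Of these, 11 were lower (34.4% of the members, against 33.3% of all 4964 features) and 5 were higher (15.6% of the members, against 7.43% of all features). The lower members were Vha16-1 and Vha68-3 of the V-ATPase, Rab2, Rab18, Rab26, Rab3-GAP and both features of Rab35, Arl6IP1, Sec22, and Vps39. The higher members were Rab19, Sec24AB, Sec61beta, Sec63 and Vps52. The share of lower members was near that of all features. At 12 hrs forward arrays called 1 of 23 members as lower, beside 1.30% of 3938 features, and none as higher, beside 1.42%. This member was Rab26, named after its values were seen because it was the only one called, with -0.29 and -0.68 on forward arrays and 0.01 and -0.25 on swapped arrays. On the 7th day none of 13 members was called on forward arrays (0% of 2944 features), and none had an unadjusted p under 0.05.

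Markers of head cell types were read on the same arrays. On forward arrays of the 2nd day 11 of 12 values of the fat body markers were below 0. Their median was -1.27 over 6 features of 5 genes (apolpp, Yp1, Yp2, Lsp2 and Cyp4d21). Of these features 4 were called lower, where 33.3% of all features were. After turning 2 of 11 values were below 0 on swapped arrays. The median of the list over the single arrays ran from -1.50 to 0.34 on the 2nd day. Those of photoreceptors ran from -0.03 to 0.29, of muscle from 0.00 to 0.03, of neurons from -0.25 to 0.07 and of glia from -0.02 to 0.38. At 12 hrs, where the V-ATPase median was above 0, the list medians over arrays with a value ran from 0.25 to 0.62 for photoreceptors, 0.15 to 0.40 for muscle, 0.02 to 0.59 for neurons, -0.15 to 0.52 for fat body and -2.63 to -0.02 for glia, of which 2 genes were on the array. In the 7th day arrays, once turned, the fat body list ran from -0.12 to 2.23. The highest was on replicate 4, where all features had a median of 0.64. As deposited, the 3 fat body features tested at the 7th day had a median of -1.05. They were 2 features of apolpp and a feature of Fbp1. The 2 of apolpp were called lower, beside 0.672% of all features called in either direction. Fbp1 had 1.06 and -0.08 on forward arrays and, once turned, 0.44 on its swapped array. The part of the markers in the values of the members was not tested. Ratios hold no level, so that the presence of head cell types could not be read from them.

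**Figure D4:**
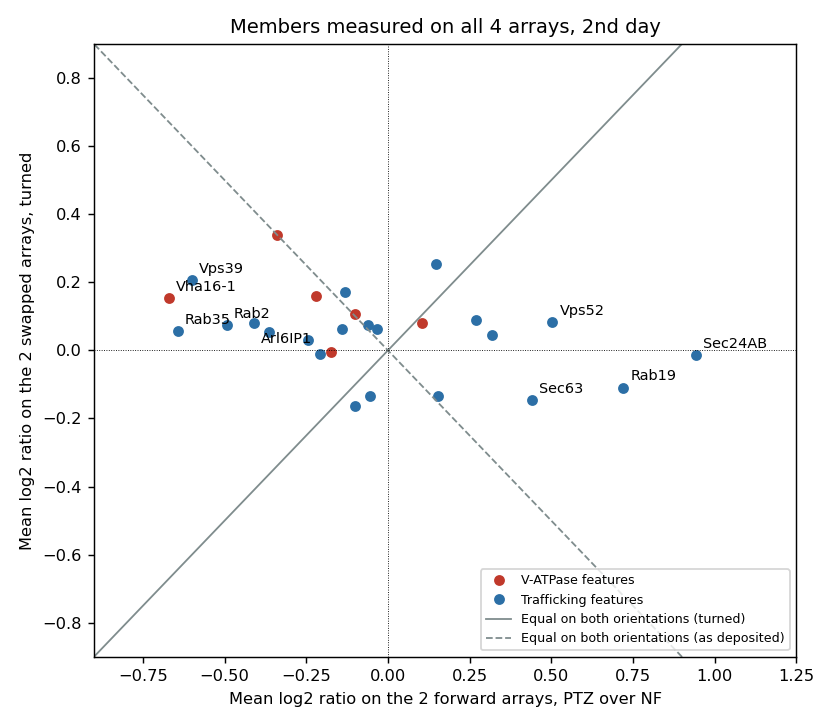
Mean log2 ratio on the 2 forward arrays (horizontal axis) and on the 2 swapped arrays after turning (vertical axis) for the 27 members with a value on all 4 arrays of the 2nd day, V-ATPase in red and trafficking in blue. The forward means spread from -0.67 (Vha16-1) to 0.94 (Sec24AB), and the solid and dashed lines mark equal values on both orientations, once turned and as deposited.

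A fit with a term for dye orientation, which takes a difference between forward and swapped arrays out of the spread, called 6 of 35 members on the 2nd day with swapped arrays turned. The lower ones were Rab35 (-0.29, limma adjusted p = 0.0141, in 1 of its 2 features, the other having -0.23 and adjusted p = 0.119) and Vha16-1 (-0.26, adjusted p = 0.0299), 5.71% of the members beside 14.1% of all features. The higher ones were Sec24AB (0.46, adjusted p = 5.56e-04), Rab9 (0.50, adjusted p = 0.00310), Rab19 (0.31, adjusted p = 0.0130) and Vps52 (0.29, adjusted p = 0.0178), 11.4% of the members beside 4.43% of all features. Called genes lay on both sides in the Rab family, and the V-ATPase had 1 call. The same fit called no member at 12 hrs or on the 7th day, and no feature at all (0% in both). In the simulated data this fit found 0% of planted changes of 0.5 at 12 hrs and 84.5% of those of 1. For the 7th day it found 0% of both. For the 2nd day the simulated shares were 0% and 77.5%. The 6 members called there nevertheless had estimates of only 0.26 to 0.50 in size. The simulated shares are therefore no guide to the sizes that this fit can call on the real arrays. Its counts of 0 do not show unchanged members.

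The same fit on the ratios as deposited, added after the data were seen, called 13 of 35 members on the 2nd day. They were 9 lower, beside 23.5% of all features, and 4 higher, beside 5.70%. Of the 6 members above, 5 were called in the same direction in both readings, Rab35 and Vha16-1 as lower (beside 7.41% of all features) and Rab9, Rab19 and Sec24AB as higher (beside 2.77%). Vps52 was called in 1 reading only. In each of these 5 the forward mean was larger in size than the swapped mean, and forward arrays are the same in both readings. Rab9 rests on 1 forward array, without which its mean was -0.06. The 6 calls also rest on single arrays. With 1 replicate left out, a feature needed only a value in each orientation, a lower minimum than the 3 arrays above. Vps4, with 2 values and too few for the test above, entered in this way. Without replicate 1 there were 3 (Rab9, Sec24AB and Vps52), and without replicate 4 there was 1, Vps4, which was not among the 6. Without replicate 2, whose labels contradict themselves, there were 5, of which 3 (Rab19, Rab35 and Sec24AB) were among the 6. The run without replicate 3 called 2 lower and 5 higher members, so that the count did not fall there.

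For the V-ATPase against the trafficking genes, the median log2 ratio of the V-ATPase features minus that of the GTPase, Sec and Vps features was taken on each array. At 12 hrs it was 0.20 and 0.10 on forward arrays and 0.02 and 0.27 on swapped arrays. The V-ATPase lay above the trafficking genes on all 4 turned arrays, with a mean difference of 0.15 ± 0.11 (SD, n = 4). The trafficking medians there were 0.02, -0.07, 0.02 and -0.01, each below that of all features (0.16, 0.001, 0.09 and 0.0015). The V-ATPase median lay above that of all features except on replicate 3. The 2nd-day difference was close to 0, at 0.03, -0.05, 0.04 and 0.08 (mean 0.03 ± 0.05). On the 7th day it was -0.12 and -0.13 on forward arrays and 0.25 and 0.03 on swapped arrays (mean 0.01 ± 0.18). As deposited, the mean was 0.00 ± 0.20 for 12 hrs, -0.04 ± 0.04 for the 2nd day and -0.13 ± 0.09 for the 7th day, with the V-ATPase below the trafficking genes on all 4 arrays of the 7th day. On forward arrays, which do not depend on the reading, the V-ATPase lay above the trafficking genes at 12 hrs on both arrays and below them on the 7th day on both. Replicate 2 of the 7th day had values for only 3 V-ATPase and 11 trafficking features. The 2 forward arrays of the 7th day had a correlation of -0.14 over all features.

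**Figure D5:**
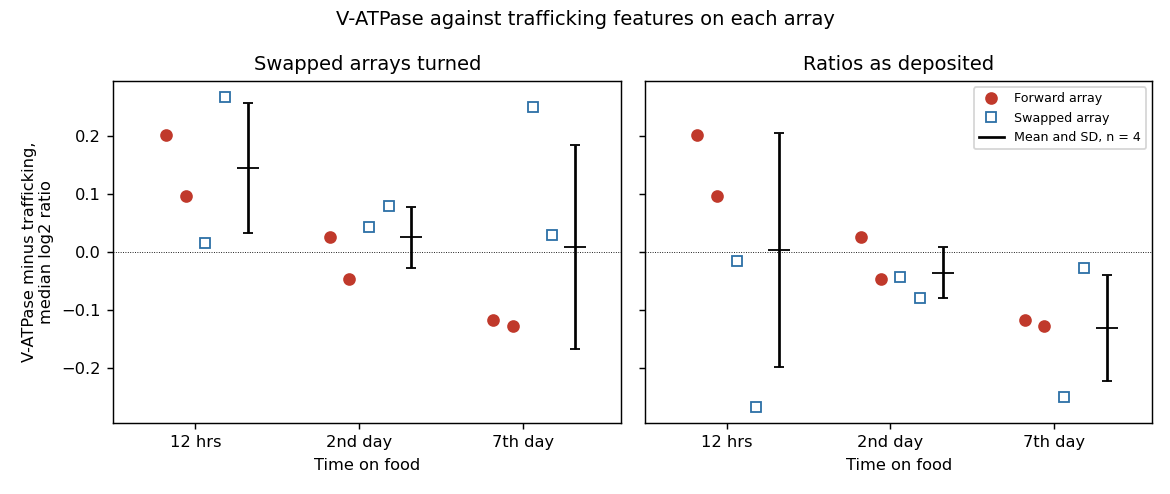
Median log2 ratio of the V-ATPase features minus that of the trafficking features (vertical axis) on each array at the 3 time points, with swapped arrays turned (left) and as deposited (right), circles for forward and squares for swapped arrays, and bars for the mean and SD of 4 arrays. Turned, all 4 arrays of 12 hrs lie above 0 (0.02 to 0.27), and as deposited all 4 arrays of the 7th day lie below 0 (-0.25 to -0.03).

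The ratios of the members at different time points were set against each other in 1 fit over the 12 arrays, which 16 members entered. None was called between the 2nd day and 12 hrs (0% of 2079 features), between the 7th day and 12 hrs (0%) or between the 7th and the 2nd day (0.0481%). As deposited none was called either, where 0%, 0.722% and 0.0481% of the features were. With turned ratios 1 member, Rab35 between the 7th and the 2nd day, had an unadjusted p under 0.05, beside 2 lower and 209 higher of all 2079 features. The difference was 0.68 ± 0.25 in this feature (SE, limma adjusted p = 0.471) and 0.08 ± 0.25 in the other feature of Rab35 (adjusted p = 0.840). As deposited Vha26 was the nearest, with -0.81 ± 0.21 between the 7th day and 12 hrs (SE, limma adjusted p = 0.0670).

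Other genes of the same pathways, from lists drawn up by name, were 5 of 14 further V-ATPase genes and 40 of 71 further trafficking genes on the array. With swapped arrays turned none of the 4 and 17 features tested at 12 hrs was called, none of 4 and 19 on the 2nd day, and none of 4 and 19 on the 7th day. On forward arrays of the 2nd day 2 of 4 V-ATPase genes and 3 of 19 trafficking genes were lower and none was higher, beside the shares of all features given above. VhaSFD, the H subunit that regulates the motor, had -0.34 and -0.54 on these arrays and 0.24 and 0.39 on swapped arrays. Its values of the 7th day were -0.85 and 0.20 on forward arrays and 0.40 and 0.54 on swapped arrays, and at 12 hrs -0.05, 0.18, 0.00 and 0.38. The endosomal sorting genes Snx1, a sorting nexin, and TSG101, an ESCRT subunit, were measured on all 12 arrays. Both stood above 0 on the 4 turned arrays of 12 hrs, with 0.31, 0.13, 0.35 and 0.08 for Snx1 and 0.43, 0.08, 0.37 and 0.10 for TSG101. So did 22.9% of all features with a value on these 4 arrays. As deposited, the swapped values of both genes were below 0. Snx1 in 2nd-day arrays had -0.43 and -0.18 on forward arrays and 0.19 and -0.01 on swapped arrays, and TSG101 stayed within 0.15 of 0.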

How the data were processed

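Heads of flies fed PTZ or NF were compared on 12 two-colour cDNA arrays, 4 at each of 3 time points. The authors scanned the arrays, normalized the ratios, removed weak, saturated or flagged spots, and deposited log2 ratios. The 0 hr arrays are not analysed here. Neighbouring spots of the same probe, 2 in number, were averaged and are called a feature. Gene names came from the array's annotation. Of 27648 spots, 12430 had no symbol and 102 had several. Current symbols (Release 6) were found through the gene ID for 7447 of the 7558 features that had 1 symbol. Sequences and promoters were not used here.

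The test was that of limma 3.58.1 in R 4.3.3 (eBayes, 2-sided, Benjamini-Hochberg over all features tested, called at an adjusted p under 0.05), on features with 3 or 4 of the 4 arrays of a time point, and the steps were tested on simulated data. Swapped arrays were multiplied by -1 in the main analysis. Alternatives were ratios as deposited, forward arrays only, a dye coefficient, centring on array medians, values on all 4 arrays, SAM with all sign flips, a replicate block and leaving out each replicate. Named genes are the V-ATPase genes with a value on at least 10 arrays, up to 4 genes per other family with values on most arrays, and members called in the main or the dye fit. Members and lists were chosen with earlier results of these data known.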

Additional observations from a re-analysis of the deposited data

Results flagged for a closer look

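Over 41 sets of 4 arrays (named members at each time point, and the V-ATPase minus trafficking difference), the gap of 1 array to its neighbour was set against the range of the 4. Chance flags about 1 in 20 such sets, and 2 were flagged. Vha44 at 12 hrs had -1.91 on replicate 3, while the other 3 arrays lay between 0.13 and 0.32. The second feature of Vha44 had 0.04 on the same array. Vha55 on the 2nd day had 0.23 on replicate 3, while the other 3 lay between -0.24 and -0.17. As deposited this value reads -0.23.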

How the results depend on the processing

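The count of members called was 0 at each time point and in each contrast between time points. On forward arrays only it became 1 for 12 hrs and 16 for the 2nd day, with SAM 6 at 12 hrs and 1 at the 2nd day, and 6 on the 2nd day with a dye coefficient. With the dye coefficient and ratios as deposited, chosen after seeing the data, it was 13 on the 2nd day. Leaving out each replicate in turn, with a lower minimum of arrays and also chosen after seeing the data, the 6 members called with the dye coefficient became 1 to 7. Centring and leaving out replicates in the main fit left each count at 0, as did requiring values on all 4 arrays at the time points, which was not run for the contrasts. Centring brought the median of all features at the 7th day to -0.03, against 0.16 uncentred, and that of the 25 members to -0.06, against 0.14.

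As deposited, the V-ATPase minus trafficking median moved to 0.0034 at 12 hrs, against 0.1452 turned, and to -0.0356 at the 2nd day, against 0.0252 turned. At the 7th day it was -0.1312, within 1 SD of the main value of 0.0084.

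With a replicate block, 0 members were called in each contrast, turned or as deposited. Replicate numbers were not taken as pairs, since the correlations of same-numbered arrays after turning ran down to -0.0635 between time points. The 57 means of the 23 named genes gave 595 values under the alternatives, of which 30 passed a threshold that the main fit did not, and 30 moved by more than the spread between arrays. With no call in the main fit, none could reverse.

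Spots removed by the filters left 17 members on 3 or fewer arrays, and log2 ratios without intensities give no signal over background.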
